A study of Mus musculus with 6 samples.

Results

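The Schlafen genes Slfn1, Slfn2, Slfn3, Slfn4, Slfn5, Slfn8 and Slfn9 were followed in adherent peritoneal cells of mice given BSN-37 (a code name, and the sole name the labels give this agent) or PBS, a buffered saline. They were chosen by gene symbol, 7 of the 46141 genes in the deposited table, and all 7 were among the 9850 coding genes with at least 1 FPKM (fragments per kilobase of transcript, scaled to library size) in at least 3 of the 6 libraries. The family was put forward with the difference between BSN-37 and PBS already known, so its values in that contrast are a description and support nothing. The animals were male Balb/c mice aged 6 to 8 weeks, and all of them had received 2 mL of 3% thioglycollate broth, an irritant that recruits monocytes and macrophages, 3 days before sampling. PBS mice then received 0.2 mL of saline and BSN-37 mice 0.2 mL of BSN-37 at 48 µg/mL into the peritoneum, the cavity was washed out 12 h later, and cells were left to adhere for 4 h. Cells of 6 mice were pooled per library, giving 3 libraries per group from 18 mice each.

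Schlafen proteins are found in mammals as a family of growth regulators and antiviral factors, and many of their genes respond to interferon. The short members hold the N-terminal Schlafen core alone, the intermediate ones add a linker region, and the long ones carry a helicase-like C-terminal part, with cleavage of transfer RNA described for several members. In macrophages the family is known for its response to interferon and to microbial products. Slfn2 is known for keeping T cells and monocytes quiescent.

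Totals over all genes were 55882693 to 65456020 reads per library, and 32737 to 96050 of these fell on the 7 members, between 0.0540% and 0.148% of reads. The macrophage identity of the cells was visible in Csf1r at 411 to 516 FPKM and Adgre1, which encodes F4/80, at 264 to 425 FPKM. The 13 T cell markers summed to 0.592 to 1.12 FPKM in PBS and 0.769 to 1.37 FPKM in BSN-37 libraries. PBS library 1 stood apart on principal component 1 of the coding genes, at 36.7 against -14.1 to 1.61 in the other 5.

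The genes form a cluster on chromosome 11 (GRCm38). Slfn5 lies at chr11:82951349-82964840 on the plus strand, followed on the minus strand by Slfn9 at chr11:82978390-82991830 and Slfn8 at chr11:83002158-83020810. Slfn2 at chr11:83065112-83070678, Slfn1 at chr11:83116849-83122670, Slfn4 at chr11:83175186-83190216 and Slfn3 at chr11:83191330-83215154 are all on the plus strand. The coding lengths separate the classes. Slfn1 and Slfn2, the short members, have 1014 and 1137 coding bases, Slfn4 and Slfn3, the intermediate ones, 1809 and 1923, and Slfn5, Slfn8 and Slfn9, the long ones, 2655, 2733 and 2733. The closest pairs in coding sequence were Slfn3 with Slfn4, 93.7% identical over the aligned bases, and Slfn8 with Slfn9, 93.0% identical.

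The stretches just before the transcription start also fell into sets. They are shown because each set shares a motif within 155 bases of the start. Slfn1, Slfn2, Slfn3 and Slfn4 each hold ACTTCCTGG, the letters of an ETS-type element (the class bound by the macrophage factor PU.1), on the plus strand between 74 and 34 bases before the start. This motif was picked after the sequences were read. It lies on either strand in 0.843% of the 32851 RefSeq promoter windows, which run from 250 bases before to 50 after each start. The 60 bases from position -90 to -31 are given 5′ to 3′ (RefSeq, GRCm38.p6, plus strand) at chr11:83116730-83116789, chr11:83065022-83065081, chr11:83191240-83191299 and chr11:83175096-83175155, with matches in capitals.
Slfn1: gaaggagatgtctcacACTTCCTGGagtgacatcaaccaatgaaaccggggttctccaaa
Slfn2: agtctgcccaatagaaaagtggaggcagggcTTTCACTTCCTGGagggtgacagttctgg
Slfn3: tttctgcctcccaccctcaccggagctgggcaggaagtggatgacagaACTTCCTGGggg
Slfn4: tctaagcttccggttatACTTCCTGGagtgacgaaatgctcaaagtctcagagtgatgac
In Slfn2 the capitals begin 4 bases earlier, since the ETS match overlaps an ETS-IRF composite element on the minus strand (GGAA, any 2 bases, GAAA), which 2.72% of the windows hold. The longest run shared by Slfn1 and Slfn4 was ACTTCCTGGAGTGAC.

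Slfn5, Slfn8 and Slfn9 each hold the letters of the interferon-stimulated response element (GAAA, any 2 bases, GAAA), which were searched on both strands and are present in 3.44% of the windows. It lies at -45 to -36 in Slfn9 and at -48 to -39 in Slfn8 (at -136 to -127 from the second start listed for Slfn8), and at -155 to -146 in Slfn5. The stretches of Slfn8 and Slfn9 run from -110 to -21 on the minus strand at chr11:83020831-83020920 and chr11:82991851-82991940, and that of Slfn5 lies on the plus strand at chr11:82951912-82951991. RefSeq starts Slfn5 farther downstream than the GENCODE start given above, so this stretch lies before the RefSeq start and inside the gene as GENCODE draws it. Capitals mark the element, read on the minus strand of the gene in Slfn8 and Slfn9.
Slfn8: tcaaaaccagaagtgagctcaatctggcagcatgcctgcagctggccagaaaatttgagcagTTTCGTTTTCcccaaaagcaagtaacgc
Slfn9: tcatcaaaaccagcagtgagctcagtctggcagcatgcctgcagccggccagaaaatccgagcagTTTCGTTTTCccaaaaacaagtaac
Slfn5: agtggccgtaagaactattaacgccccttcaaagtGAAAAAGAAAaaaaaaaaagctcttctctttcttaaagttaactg
The same letters, TTTCGTTTTC, stand in Slfn8 and Slfn9, while the match in Slfn5 has other letters and runs into a stretch of A. A variant with 1 base between the GAAA runs, picked after the sequences were read, matched in Slfn4 at -214 to -206. It is present in 3.17% of the windows, so the sets are not cleanly apart. The gamma-activated site TTCNNNGAA, present in 8.30% of the windows, had no match in the windows of the 7 members. A match is a string of letters in this window and was not tested as a binding site.

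Levels spanned a wide range across the family, in the order Slfn2, Slfn5, Slfn8, Slfn1, Slfn4, Slfn3 and Slfn9 by mean FPKM over the 6 libraries. Slfn2, whose protein keeps T cells and monocytes quiescent, averaged 163.5 FPKM and ranked 261st of the 9850 coding genes by level. It was above Slfn5, next at 47.4 FPKM, in all 6 libraries, and their ranges did not overlap. Slfn8, Slfn1 and Slfn4 followed at 31.4, 29.4 and 26.4 FPKM, and the ranges of these neighbours overlapped from Slfn5 down to Slfn4. Slfn3 at 6.34 FPKM lay below Slfn4 with no overlap, while its range met that of Slfn9, the lowest at 2.79 FPKM. Slfn3 was still above Slfn9 in all 6 libraries. Slfn2 alone made up 58.2, 62.8 and 65.0% of the summed FPKM of the family in PBS pools 1 to 3, and 47.8, 59.3 and 40.9% with BSN-37.

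Slfn1, which arrests growth of T cells when overexpressed, was read at 31.7, 16.9 and 13.2 FPKM in the PBS pools, in the order of library 1 to 3, and at 48.6, 14.1 and 52.0 in those given BSN-37. BSN-37 libraries 1 and 3 were the highest, and BSN-37 library 2 lay among the PBS libraries. The means were 20.6 ± 9.76 and 38.2 ± 20.9 (SD, n = 3 pools in each group, here and for later means), a log2 difference of 0.89 (SE 0.49). Slfn2 stood at 188, 155 and 145 FPKM with PBS against 189, 116 and 189 with BSN-37. The highest PBS library stood level with the highest BSN-37 libraries, and the lowest value was that of BSN-37 library 2. Its means of 162.5 ± 22.4 and 164.5 ± 42.2 differed by 0.00050 on the log2 scale, with a standard error of 0.21.

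Among the intermediate members, Slfn4, which myeloid cells induce in response to interferon and Toll-like receptor ligands, reached 25.9, 16.1 and 11.6 FPKM with PBS against 37.9, 17.8 and 49.3 with BSN-37. The groups overlapped, with BSN-37 library 2 below PBS library 1. The means were 17.9 ± 7.30 and 35.0 ± 16.0, a log2 difference of 0.95 (SE 0.39). Slfn3, close to Slfn4 in sequence and described in T cells and in gut epithelium, lay at 6.02, 4.28 and 4.98 FPKM with PBS against 9.29, 2.72 and 10.7 with BSN-37. Here BSN-37 library 2 was the lowest of all 6 and the other BSN-37 libraries were the highest. The means were 5.09 ± 0.875 and 7.58 ± 4.27 (log2 difference 0.56, SE 0.44).

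The long members shared this shape on different base lines. Slfn5, an interferon-responsive nuclear protein, gave 45.9, 29.8 and 26.1 FPKM with PBS against 62.4, 26.0 and 94.3 with BSN-37. Slfn8, annotated with endoribonuclease activity in the deposited table, gave 23.9, 22.9 and 20.9 with PBS against 43.7, 16.8 and 60.4 with BSN-37. For both, BSN-37 library 2 was the lowest of the 6 and BSN-37 library 3 the highest, so that the groups overlapped. Slfn5 averaged 33.9 ± 10.5 and 60.9 ± 34.2 (log2 difference 0.84, SE 0.41) and Slfn8 22.6 ± 1.52 and 40.3 ± 21.99 (0.82, SE 0.38). Slfn9, its close paralog, gave 1.69, 1.58 and 1.36 FPKM with PBS against 4.78, 1.82 and 5.51 with BSN-37. These groups did not overlap, by a margin between 1.69 in PBS library 1 and 1.82 in BSN-37 library 2. The means of 1.54 ± 0.169 and 4.04 ± 1.95 gave a log2 difference of 1.38 (SE 0.36), the widest among the members.

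**Figure D1:**
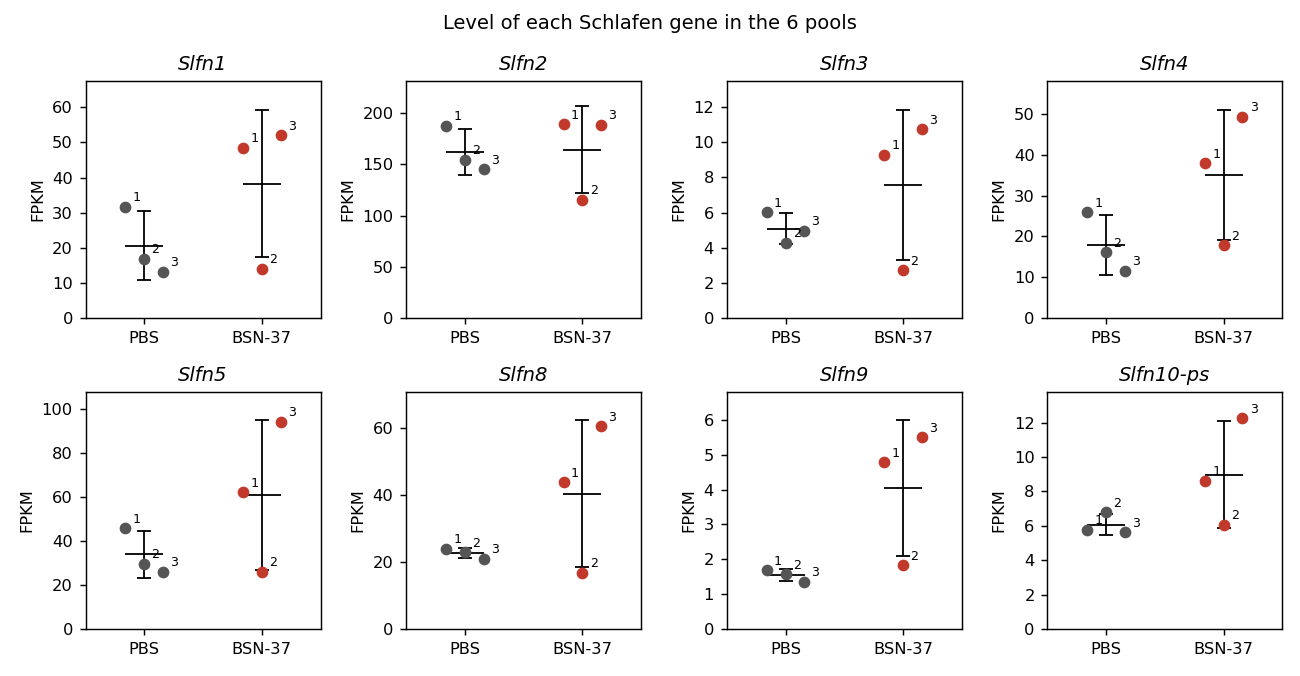
FPKM (vertical axes, each from 0) of the 7 Schlafen members and of the pseudogene Slfn10-ps in the PBS (grey) and BSN-37 (red) pools, numbered by library, with the group mean (long bar) and SD (error bar, n = 3). BSN-37 libraries 1 and 3 lie above the PBS libraries in each panel, for Slfn2 by little (189 against at most 188 FPKM), while BSN-37 library 2 lies among or below them except for Slfn9 (1.82 against at most 1.69).

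With edgeR's quasi-likelihood test and Benjamini-Hochberg adjustment over all coding genes, 0 of the 7 members passed an adjusted p of 0.05, where 1 gene in all passed (0.0102%). The lowest adjusted p of a member was 0.401, that of Slfn9, and 2 members, Slfn4 and Slfn9, had an unadjusted p under 0.05 (9.04% of coding genes did). DESeq2 called 1 member, Slfn9, where it called 1.16% of coding genes, and limma on log2(FPKM + 1) called 0 members and 0 genes in all. Groups without overlap were seen for 1 member, against 7.80% of coding genes with BSN-37 higher and 14.6% in either direction. All 7 differences were above 0, Slfn2 by 0.00050, as were those of 49.6% of coding genes. A log2 difference above 0.5 was seen for 6 members and for 4.49% of coding genes, and since this contrast was known when the family was put forward, nothing is read from these counts. The authors' deposited table calls genes at a DESeq2 p-value of 0.05, not the adjusted p used here, and a fold change of 1.5. In it, Slfn9 was the member called higher, with a p of 0.000108 and a log2 fold change of 0.80, where 0.801% of the genes with a p were so called. The authors' fold changes were smaller than those of edgeR here, at 0.80 against 1.38 for Slfn9 and 0.24 against 0.89 for Slfn1. The reason was not tested. The authors' deposited table gave the other 6 members no call.

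The differences changed with single libraries. Without BSN-37 library 2 edgeR called 2 members, Slfn8 (log2 difference 1.20, adjusted p = 0.0490) and Slfn9 (1.74, adjusted p = 0.0194), among 12 coding genes in all. Without BSN-37 library 3 the differences of Slfn3, Slfn4, Slfn5 and Slfn8 were 0.23, 0.61, 0.40 and 0.43, and without BSN-37 library 2 that of Slfn3 was 0.98. Without PBS library 1 the differences of Slfn1 and Slfn4 were 1.34 and 1.33. Each of the 6 members other than Slfn2 stayed above 0 with any 1 library left out, Slfn9 between 1.10 and 1.74, and Slfn2 lay between -0.13 and 0.22.

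**Figure D2:**
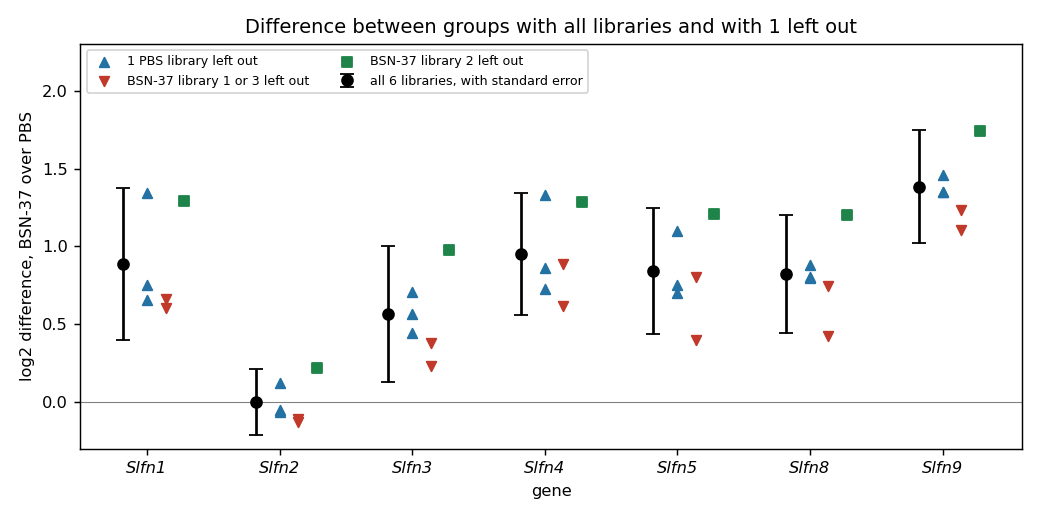
Log2 difference of BSN-37 over PBS from edgeR (vertical axis) for each member with all 6 libraries (black, bars show the standard error) and with 1 library left out (coloured). The standard error was derived from the F statistic of the test. Leaving out BSN-37 library 2 (green squares) gave 1.20 for Slfn8 and 1.74 for Slfn9, and Slfn2 stayed near 0 throughout.

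The distance between pools of a group is given as a description, since the BSN-37 values that chose the family also set their spread. Among the 3 BSN-37 pools the SD of log2 CPM (counts scaled to library size) was 0.81 to 1.13 for the 6 members other than Slfn2 and 0.46 for Slfn2, against a median of 0.16 over all coding genes. By this SD the members ranked between the 93.4th percentile of coding genes (Slfn2) and the 99.5th (Slfn3). The highest BSN-37 library exceeded the lowest by 2.77-fold for Slfn4 and by 3.94-fold for Slfn3, and by 1.63-fold for Slfn2.

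In the PBS pools the members parted. Slfn1 and Slfn4 varied widely there (SD of log2 CPM 0.64 and 0.57, the 97.8th and 96.5th percentiles), with PBS library 1 above the other PBS libraries. Slfn8 and Slfn9 were steady, at 0.081 and 0.12 (the 15.1th and 28.5th percentiles, against a median of 0.18). In FPKM the coefficient of variation among PBS pools was 6.75% for Slfn8 and 10.9% for Slfn9, and 47.4% for Slfn1. Slfn2, Slfn3 and Slfn5 lay between, at 0.19, 0.26 and 0.38.

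**Figure D3:**
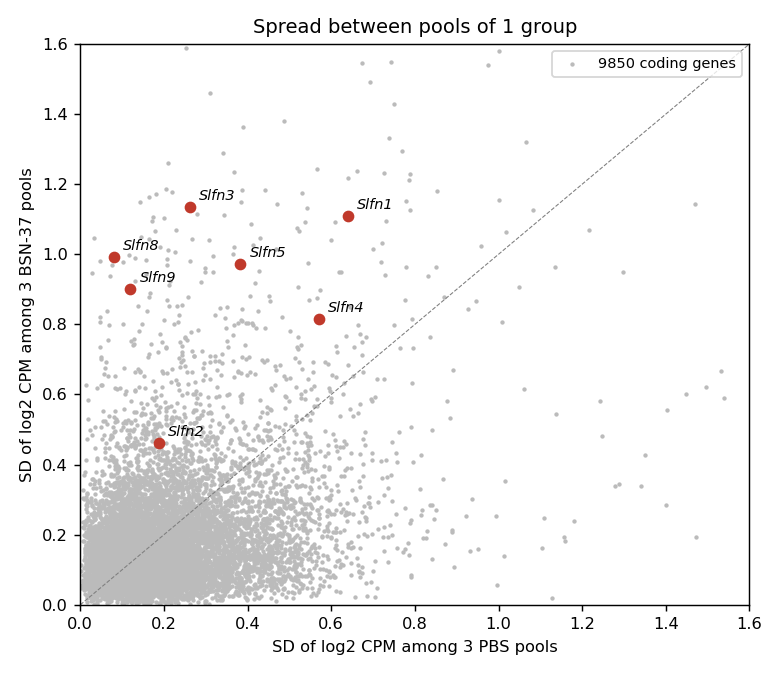
SD of log2 CPM among the PBS pools (horizontal axis) and among the BSN-37 pools (vertical axis) for 9850 coding genes (grey) and the 7 members (red), with the line of equal spread dashed; 27 genes lie beyond the axes. All 7 members lie above the line, and Slfn8 and Slfn9 combine a small PBS spread (0.081 and 0.12) with a large BSN-37 spread (0.99 and 0.90).

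The members moved together from library to library. Over the 21 pairs of members, Pearson's r of log2 CPM across the 6 libraries ran from 0.58 (Slfn2 with Slfn9) to 0.97 (Slfn1 with Slfn5), with a median of 0.91, given as a description of 6 libraries that share the same 2 groups. With each group's mean subtracted the pairs lay between 0.86 and 0.99, with a median of 0.96. The BSN-37 pools weigh most in these values, since every member varied more among them than among the PBS pools. For Slfn8 the SD of log2 CPM was 0.99 with BSN-37 and 0.081 with PBS. Among the PBS pools library 1 was the highest for every member, while the lowest was library 2 for Slfn3 and library 3 for the others. The mean of the 7 members, centred on the 6 libraries, stood at 0.035, -0.46 and -0.54 with PBS against 0.72, -0.72 and 0.96 with BSN-37.

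The 5 coding genes closest to the mean of the members, by Pearson's r over the 6 libraries, were Phf11a (r = 0.997), Frmd4a (0.993), Sp100 (0.991), Gm5431 (0.990) and Herc6 (0.990). Sp100 encodes a nuclear body protein, and Herc6 the ligase that attaches ISG15 to proteins in mice. Phf11a gave 4.65, 2.93 and 2.43 FPKM with PBS against 8.09, 2.35 and 9.44 with BSN-37, the order of libraries seen for Slfn5. The closest genes to single members differed. Slfn9 was nearest to Baz2a (r = 0.990), then to Mnda (0.989), Mndal (0.989), Zc3hav1 (0.987) and Ifi204 (0.986), and Mnda, Mndal and Ifi204 belong to the Ifi200 family of nucleic acid sensors. Slfn2 was nearest to Plcb2 (0.989) and Xaf1 (0.984), and Slfn5 to Herc6 (0.990). Over 6 libraries such an r was also reached by genes that varied little. Baz2a gave 17.0, 17.6 and 16.4 FPKM with PBS against 19.35, 18.5 and 20.5 with BSN-37. With group means subtracted the genes closest to the family mean were Jun (0.999), Parp9 (0.998), Arhgap10 (0.998), Herc6 (0.998) and Frmd4a (0.997). Jun gave 39.6, 38.4 and 36.35 FPKM with PBS against 35.3, 31.4 and 37.2 with BSN-37.

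A list of 30 antiviral interferon-stimulated genes was compared with the family, and 29 of them were tested. Their r with the mean of the members ran from 0.71 to 0.99, with a median of 0.92, where all coding genes had a median of -0.019. By member the median r with this list was highest for Slfn1 (0.94) and Slfn3 (0.94) and lowest for Slfn9 (0.75). On the same centred log2 scale the list averaged 0.48, -0.44 and -0.65 with PBS against 0.73, -1.04 and 0.91 with BSN-37. This list was chosen with earlier results of these data known. Its likeness to the family and its differences between groups are a description and support nothing.

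Of the 29 antiviral genes 27 were higher and 2 lower in the BSN-37 mean, with a median log2 difference of 0.54 against -0.0018 over all coding genes. With edgeR 0 passed the adjusted threshold, 1 had an unadjusted p under 0.05 (Samd9l), and 0 had groups that did not overlap. Over all coding genes 49.6% were higher, 9.04% had such a p and 14.6% had groups without overlap. Oasl1, an inhibitor of IRF7 translation in mice, gave 104, 45.6 and 37.1 FPKM with PBS against 84.1, 23.4 and 85.2 with BSN-37. Its highest value was in PBS library 1, unlike any Schlafen member. Samd9l, a restriction factor of poxviruses, gave 12.3, 14.5 and 17.9 FPKM with PBS against 30.2, 17.8 and 40.7 with BSN-37, and in it PBS library 1 was the lowest.

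**Figure D4:**
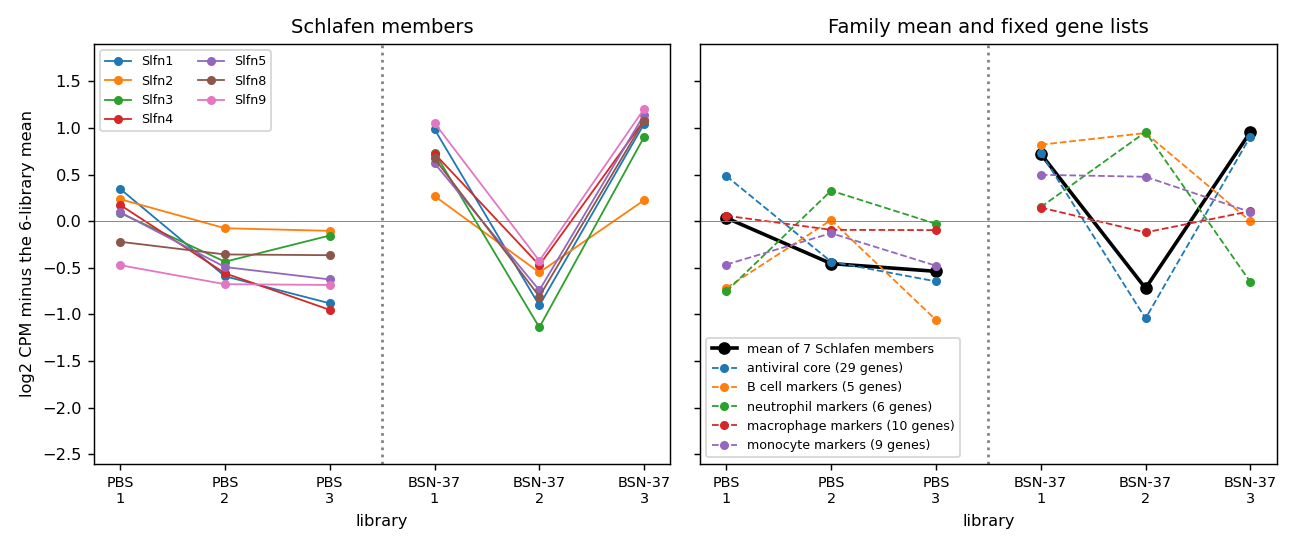
Log2 CPM minus each gene's mean over the 6 libraries (vertical axis) by library, for the 7 members (left) and for their mean beside gene lists (right, mean over the tested genes of each list); lines join libraries of 1 group to guide the eye. The family mean and the antiviral list are both lowest in BSN-37 library 2 (-0.72 and -1.04) and highest in BSN-37 library 3 (0.96 and 0.91), whereas the B cell and neutrophil lists are highest in BSN-37 library 2 (0.95 and 0.96).

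Interferon genes were scarcely read, and none was tested. Of 12 ligand genes, a list that also holds the cytokines Il15 and Il27, 8 were listed at 0 FPKM in all 6 libraries, namely the 6 Ifna and 2 Ifnl genes. Ifnb1 reached at most 0.101 FPKM, in PBS library 3, and Ifng 0.0219 FPKM, in PBS library 2. Il15, which is no interferon, was the 1 gene of the list tested and averaged 2.73 ± 0.697 FPKM with PBS and 3.40 ± 0.398 with BSN-37.

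The receptors and signalling genes were well expressed, and 0 of 12 passed the adjusted threshold, with 2 at an unadjusted p under 0.05. Over all coding genes 9.04% had such a p and 49.6% were higher. Of the 12, 7 were higher and 5 lower, with a median log2 difference of 0.11. Ifnar1, a chain of the type I interferon receptor, had 111 ± 9.60 and 120.2 ± 17.1 FPKM. Ifngr1, a chain of the interferon gamma receptor, gave 47.4, 58.4 and 53.9 FPKM with PBS against 66.3, 84.6 and 68.2 with BSN-37 (means 53.3 ± 5.56 and 73.0 ± 10.1). Its groups did not overlap, as was so for 14.6% of coding genes, and BSN-37 library 2 was the highest. Socs3, a feedback inhibitor of cytokine receptors, had 13.3 ± 3.47 and 8.96 ± 1.01.

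Among 8 tested interferon regulatory factors 5 were higher and 3 lower, with a median log2 difference of 0.024, and 0 passed or had an unadjusted p under 0.05. Irf7, the factor that amplifies interferon production, gave 155, 73.6 and 62.5 FPKM with PBS against 145.5, 76.0 and 144 with BSN-37. PBS library 1 was the highest there, above both high BSN-37 libraries. Irf8, which drives macrophage development, had 40.0 ± 8.47 and 48.9 ± 2.91 FPKM, and Irf9, a subunit of the factor that binds the interferon-stimulated response element, 22.9 ± 5.94 and 22.4 ± 4.34.

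The summed B cell and neutrophil markers, though not each marker, were highest in BSN-37 library 2, where the Schlafen mean was lowest. Fewer cells of a type and less RNA per cell cannot be told apart in these bulk libraries. The marker lists were chosen with earlier results of these data known, so their counts are a description. Over all coding genes 49.6% were higher and 9.04% had an unadjusted p under 0.05. The 10 B cell markers summed to 7.58 to 16.6 FPKM in PBS and 14.9 to 31.4 in BSN-37, with Cr2 (at most 0.0317 FPKM) near 0. All 5 tested markers were higher (median log2 difference 1.16, 0 passing, 3 at an unadjusted p under 0.05). The 12 neutrophil markers summed to 79.5 to 127 and 120.1 to 232 FPKM, with Elane at 0 in all libraries (4 of 6 tested higher, median 0.59, 0 passing, 1 under 0.05). The 10 monocyte markers summed to 301.5 to 344 and 399 to 514 FPKM (8 of 9 higher, median 0.83, 0 passing, 7 under 0.05), and the 10 macrophage markers to 15690 to 18130 and 15780 to 18440 (6 of 10 higher, median 0.048, 0 passing or under 0.05). By their sums the monocyte and macrophage markers were also highest in BSN-37 library 2 (514 and 18440 FPKM), the macrophage sum being mostly Lyz2. The mean level of the macrophage list, a measure that weighs each gene alike, was -0.12 in BSN-37 library 2. It was -0.093 and -0.096 in PBS libraries 2 and 3, and highest in BSN-37 library 1 (0.15). The part of these cell types in the Schlafen values was not tested.

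Fcgr1, the high-affinity Fc receptor among the macrophage markers, ranged more widely, with 12.3, 8.24 and 4.28 FPKM after PBS and 17.1, 7.44 and 19.3 after BSN-37. It was among the 5 genes closest to Slfn4 (r = 0.975). Markers of large resident peritoneal macrophages summed to 725 to 903 FPKM in PBS and 589 to 612 in BSN-37, mostly Lyz1. Of their 9 tested genes 7 were higher (median 0.51, 0 passing, 6 under 0.05). The shares over all coding genes were 49.6% higher and 9.04% under 0.05. The other lists were sparse. The NK cell, dendritic cell, plasmacytoid dendritic cell, mast cell and eosinophil, and mesothelium lists summed to at most 1.85, 5.38, 13.1, 0.935 and 6.33 FPKM in any library, with 0, 1, 2, 0 and 1 genes tested and 0 passing or under 0.05.

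Slfn10-ps, an unprocessed pseudogene next to Slfn8 at chr11:83028130-83040042, gave 5.78, 6.77 and 5.63 FPKM with PBS against 8.62, 6.06 and 12.3 with BSN-37. BSN-37 libraries 1 and 3 were again the highest, at means of 6.06 ± 0.624 and 8.98 ± 3.11. In a fit over 11669 genes of every class, of which 0 passed and 960 had an unadjusted p under 0.05, its log2 difference was 0.52 (SE 0.24, adjusted p = 0.612), and the authors' deposited table did not call it. Gm11427, another pseudogene of the cluster, gave 4.45, 3.71 and 4.42 FPKM with PBS against 4.82, 3.12 and 7.76 with BSN-37, and the non-coding AI662270 23.3 to 38.7 and 33.9 to 42.0.

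Slfn14, whose protein is an endoribonuclease of platelets and reticulocytes, had 0 reads in all 6 libraries, which allows up to 3 reads per library by counting error alone. Slfnl1, a Schlafen-like gene on chromosome 4, had 0 to 24 reads per library. Tested coding genes next to the cluster had narrower ranges. Rad51d lay between 2.74 and 3.37 FPKM, Nle1 between 2.73 and 4.12 (lower in all BSN-37 libraries, adjusted p = 0.593 in edgeR) and Ap2b1 between 63.8 and 74.9. No circular RNA among 1273 loci had a Schlafen host gene, with 2447 to 4564 junction reads per library.

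Reads of close paralogs could in part be exchanged between members. Of the distinct 100-base sequences in the annotated transcripts of Slfn8, 3.38% also occur in another gene, chiefly Slfn10-ps (105 sequences) and Slfn9 (50), and of those of Slfn9, 3.71%, chiefly in Slfn10-ps (181). For Slfn3, Slfn4, Slfn2 and Slfn1 the shares were 2.92, 0.271, 0.128 and 0%. Slfn5 shared 6.40%, mainly with the antisense gene Slfn5os, which was given at most 1 read in any library while Slfn5 had 7444 to 29142. The handling of shared reads and of strand in counting was not stated. These shares count distinct sequences with exact matches, not reads. Slfn8 and Slfn10-ps averaged 31.4 and 7.52 FPKM against 2.79 for Slfn9, so the shared part of Slfn9 reads can differ from 3.71%. The values of Slfn8, Slfn9 and Slfn10-ps are uncertain for this reason, and by how much was not tested.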

How the data were processed

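Directional, rRNA-depleted RNA libraries were sequenced, per the labels' protocols; the design text speaks of microarrays, but the deposited values are those of sequencing. The gene table holds read counts and FPKM for each library as deposited by the authors, per the file headers, and the submitters' processing notes name the build GRCm38. The aligner, counter and annotation release were not stated in the sources used here. A p-value and a log2 fold change from the authors' DESeq2 run stand in the deposited table for 12983 genes, per the file headers. Junction read counts of circular RNAs were deposited by the authors in another table. The 4 columns of group means were not used. Groups and library numbers were read from the labels' titles, and each library is a pool of mice. No 2 libraries agreed within sampling noise (lowest chi-square of any pair, divided by its degrees of freedom, 61.5).

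Gene classes and coordinates came from GENCODE M21 (42456 of 43339 Ensembl IDs matched), and 3 list genes were matched by their GENCODE name. Coding genes that reached 1 FPKM in 3 or more libraries were tested on counts with edgeR 4.0.16 (R 4.3.3; TMM, glmQLFit, glmQLFTest, two-sided, no covariates), adjusted by Benjamini-Hochberg over all of them. Standard errors given with edgeR differences were derived as the absolute log2 difference over the square root of the F statistic. For Slfn1 this gave 0.49, where DESeq2 gave a standard error of 0.67. DESeq2 1.42.0, limma 3.58.1 on log2(FPKM + 1) and log2(FPKM + 0.1), other filters and scaling, a replicate block and leaving out each library were alternatives. The tests were checked on simulated counts. The members and gene lists were chosen with earlier results of these data known. Named genes were the members, other genes of the cluster, its 2 nearest tested neighbours on each side (some genes under this rule are not reported here), the 5 genes of highest correlation and up to 4 of highest level per list, with more from the interferon ligand, receptor and factor lists. Samd9l, Adgre1, Rrm2, Ang, Cr2 and Elane fall outside this rule and were chosen after their values were seen. Coding sequences (Biopython 1.88, global alignment) took the place of proteins, which were not used here, and promoters came from RefSeq. PCR copies were not separated from molecules, and limits cover counting error only.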

Additional observations from a re-analysis of the deposited data

How the results depend on the processing

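Of the 9850 coding genes edgeR called 1, and the count was 114 with DESeq2, 2 with no FPKM filter (15396 genes), and 0 with median-of-ratios scaling, with limma at either pseudocount (861 and 848 genes at an unadjusted p under 0.05) and with the replicate block. With 1 library left out it ranged from 0 to 12, the 12 without BSN-37 library 2. The count of Schlafen members called was 0 with all libraries in edgeR, 1 with DESeq2 (Slfn9, log2 difference 1.40, adjusted p = 0.0121) and 0 to 2 with 1 library left out. The 6 members other than Slfn2 kept a positive difference under every alternative run, except that Slfn9 was not tested at 5 FPKM or more. Slfn2 had no settled direction. Its log2 difference was -0.0064 with no filter, -0.0016 at 5 FPKM or more, -0.0098 and -0.010 with limma at pseudocounts of 1 and 0.1, -0.036 with the replicate block, -0.0081 over all gene classes (an alternative added after seeing the data), and -0.13 to 0.22 with 1 library left out. The cause was not tested. The standard error with all libraries was 0.21, and the value beyond it was 0.22, without BSN-37 library 2.

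Whether the replicate numbers pair the pools is not settled by these values. Deviations of same-numbered libraries correlated at 0.059, 0.14 and -0.016, and those of other pairs at -0.099 to 0.052. PBS libraries 1 and 2 correlated best with their own number, and PBS library 3 did not. The block called 0 genes in edgeR, with 1020 at an unadjusted p under 0.05 against 890 without it. The number of pools and their spread limit the precision. Slfn9, with 376 to 1439 reads per library, and Slfn3, with 349 to 1532, are the members counted least.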

Other observations

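Growth and stress genes near the functions ascribed to Schlafen proteins were also counted. Their lists were chosen with earlier results of these data known. Over all coding genes 49.6% were higher and 9.04% had an unadjusted p under 0.05. Of 12 regulators of quiescence, 7 were higher and 5 lower after BSN-37 (median log2 difference 0.046), with 0 passing in edgeR and 0 at an unadjusted p under 0.05. Klf2, a factor of quiescent cells, averaged 62.4 ± 8.40 FPKM with PBS and 64.8 ± 6.90 with BSN-37. Btg1, an antiproliferative gene, gave 53.6, 59.2 and 53.1 FPKM with PBS against 69.2, 104.9 and 48.3 with BSN-37, with the highest value in BSN-37 library 2, where the Schlafen genes were low.

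Of 13 tested proliferation genes 12 were lower (median -0.38), with 0 passing and 0 under 0.05. Their mean level was 0.18, 0.13 and 0.19 in PBS libraries and -0.078, 0.14 and -0.56 in BSN-37 libraries, lowest in the library with the highest Schlafen mean. Rrm2, a subunit of ribonucleotide reductase, gave 4.00, 3.62 and 4.03 FPKM with PBS against 2.61, 3.23 and 0.958 with BSN-37.

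Among genes of transfer RNA cleavage, Ang, which encodes angiogenin, stayed between 0.479 and 0.796 FPKM. Its inhibitor gene Rnh1 had 180 ± 35.3 and 173 ± 11.3 FPKM (1 of 4 tested genes of this list higher, median -0.15, 0 passing, 1 under 0.05). All 6 NF-kB genes were lower in the BSN-37 mean (median -0.24, 0 passing, 2 under 0.05, as were 9.04% of coding genes). Nfkbia, the NF-kB inhibitor, gave 173, 177 and 137 FPKM with PBS against 120, 122 and 99.4 with BSN-37.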
